A study of Homo sapiens with 9 samples.

Results

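Receptor-type tyrosine phosphatases span the plasma membrane and remove phosphate from tyrosines inside the cell. Their extracellular parts bind other cells, matrix or secreted ligands, and many act in cell adhesion, axon growth and the building of synapses. The genes described here were named in a fixed list of 10 that opens with PTPRU, which was selected on measured values: its mRNA rose with the mimic in the dose trend of these same libraries. Of the 10, 9 were found by symbol among the 14943 genes of the count table (PTPRU, PTPRM, PTPRF, PTPRS, PTPRD, PTPRG, PTPRA, PTPRE and PTPRN), and PTPRK was not analysed here. In each of these 9 genes every library held between 123 and 8877 estimated counts, so none rested on a group of libraries at 0.

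The libraries come from SH-Sy5y, a human neuroblastoma cell line, 48 h after transfection, in a search for messages that the microRNA miR-1229-3p targets. A total of 40 pmol of RNA was given in each group: the negative control oligo alone in Ctrl., 20 pmol of it mixed with 20 pmol of a miR-1229-3p mimic at 10 nM, and the mimic alone at 20 nM. The 20 nM group therefore differs from Ctrl. both in gaining the mimic and in lacking the control oligo. Each group had 3 libraries of polyadenylated RNA, numbered 1 to 3, from one cell line in culture. What a replicate number shares between groups was not stated in the sources used here, so the p-values measure the spread between these libraries, which may be technical in part.

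Totals ran from 17.4 to 28.2 M counts. One library stood apart, since 20 nM replicate 3 scored 47.4 on the first principal component (30.4% of the variance) where the remaining 8 scored from -17.1 to 7.72, and its values are named below wherever they set a group apart. All 10 markers of noradrenergic neuroblastoma cells were in the table, and 9 of 10 were at 1 CPM (counts scaled to a common library total by TMM) or more in every library, while TH, the rate-limiting enzyme of catecholamine synthesis, lay between 0.122 and 0.914 CPM. Their summed level ran from 5921 to 6055 CPM in Ctrl., from 6283 to 6791 at 10 nM and from 6014 to 7354 at 20 nM. Among the markers reported here, ISL1 and TH were lower at 20 nM (edgeR quasi-likelihood test, adjusted p = 0.00717 and 0.0462), where 6.08% of all genes were. The 7 others did not pass an adjusted p of 0.05. TH held only 3 to 17 estimated counts per library, and DESeq2 gave it no adjusted p at 20 nM. The part of such changes in the values below was not tested.

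The mature microRNA is shown first because its seed (bases 2 to 8 from the 5′ end, in capitals) sets which messages it can pair with. It lies at chr5:179798278-179798300 on the minus strand (RefSeq, GRCh38.p14) and has 23 bases.
miR-1229-3p: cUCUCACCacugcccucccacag

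The longest 3′ UTR of each gene (GENCODE 44, GRCh38.p14) was searched on its sense strand for letters that pair with the seed. These were GGTGAGAA (8-mer), either of GGTGAGA or GTGAGAA (7-mers), or else GTGAGA (6-mer), the shorter ones being contained in the longer. Of the 9 genes, 1 held an 8-mer, 1 a 6-mer alone and 7 none of these letters. PTPRU was among the 7 without a match, in a 3′ UTR of 1152 bases. Over the 13778 genes with a 3′ UTR of at least 50 bases, 22.6% held a 7-mer or 8-mer, 4.61% an 8-mer and 61.6% none. The windows below show the strongest match of each receptor phosphatase that had one, with the matching bases in capitals. A match is a description of the sequence and not a site of action. The PTPRD window lies at chr9:8317074-8317099 on the minus strand, and that of PTPRN at chr2:219290216-219290241 on the minus strand. PTPRJ (chr11:48168151-48168176, plus strand), PTPRN2 (chr7:157539644-157539669, minus strand) and PTPRO (chr12:15600776-15600801, plus strand) are receptor phosphatases outside the list.
PTPRD: cagttttgattGGTGAGAAagtaccc
PTPRN: ggccctgccccaGTGAGAccctgggg
PTPRJ: cccattggttgGGTGAGAAtggcgac
PTPRN2: cctggaagggaaGTGAGAAaccagcc
PTPRO: catcattaggaaGTGAGAAtactcat

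In the Ctrl. libraries the 9 mRNAs covered a wide range of levels. Levels of different genes are given as CPM per kb of merged exons, since longer messages collect more reads. PTPRS, a receptor for heparan and chondroitin sulfate proteoglycans that organizes presynaptic terminals, had the highest level of the 9 at 25.1 ± 1.31 CPM per kb (mean ± SD, n = 3), ahead of PTPRA at 22.3 ± 0.318. PTPRF followed at 16.6 ± 0.853 and PTPRU at 15.2 ± 1.17 CPM per kb, and the libraries of these neighbours overlapped. PTPRN was at 5.83 ± 0.396, PTPRM at 3.52 ± 0.104 and PTPRG at 2.07 ± 0.225 CPM per kb, each apart from its neighbours. PTPRE at 0.716 ± 0.0542 and PTPRD at 0.588 ± 0.0838 CPM per kb came last, and their libraries overlapped. This order in Ctrl. was the same with the length of the longest transcript in place of merged exons.

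At 20 nM PTPRU had the highest mean level per kb of merged exons of the 9, at 27 ± 4.94 CPM per kb. PTPRS was at 24.1 ± 2.42, PTPRF at 22.8 ± 4.67 and PTPRA at 21.9 ± 0.337 CPM per kb. The PTPRU libraries overlapped those of PTPRS and PTPRF and lay above those of PTPRA. The first rank of PTPRU rests on merged exons, of which it has 6682 bases and PTPRS 11794. With the longest transcripts, of 5573 and 7356 bases, the mean of PTPRS stayed above that of PTPRU. PTPRU made up 16.6 ± 1.1% of the summed level per length of the 9 genes in Ctrl., 20.7 ± 1.37% at 10 nM and 24.1 ± 1.7% at 20 nM (SD, n = 3). The share of PTPRS was 27.3 ± 1.74%, 23.7 ± 1.14% and 21.7 ± 0.881%, in a sum that grew while the level of PTPRS itself overlapped between Ctrl. and 20 nM. The sum itself was 90.8, 92.5 and 92.5 CPM per kb in replicates 1 to 3 of Ctrl., then 98.4, 97.2 and 102 at 10 nM, and 104, 104 and 126 at 20 nM. It was thus higher in each mimic library than in any Ctrl. library, with 20 nM replicate 3 above the rest. The sum includes PTPRU, which was chosen for its rise in these libraries, so nothing about the other genes is read from it.

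**Figure D1:**
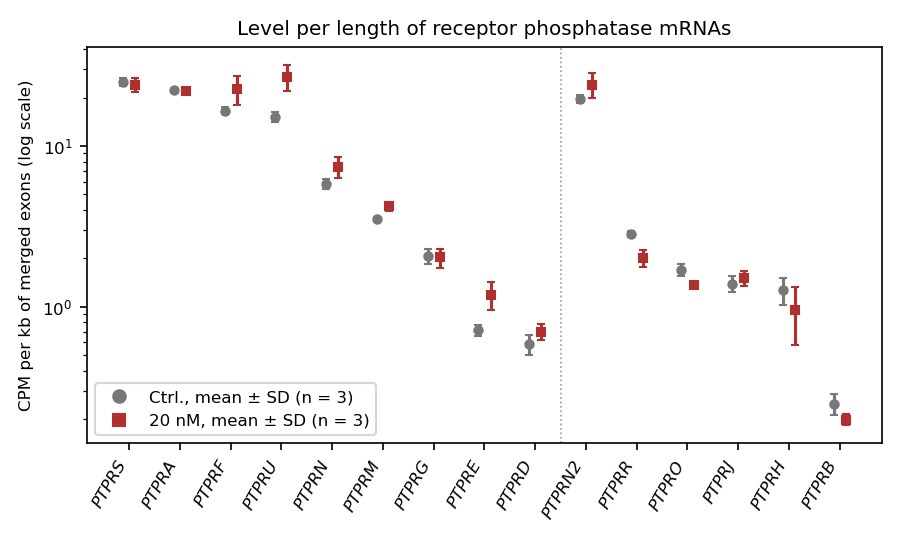
Mean level per length (CPM per kb of merged exons, log scale) of 15 receptor-type phosphatase mRNAs in Ctrl. (grey circles) and 20 nM (red squares), with the SD of 3 libraries as bars and the 9 listed genes left of the dotted line. PTPRU moved from 15.2 to 27 CPM per kb of merged exons, past the means of PTPRF, PTPRA and PTPRS. By the length of the longest transcript it stayed below PTPRS.

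PTPRU was higher in every mimic library than in every Ctrl. library, and its 3 groups followed the concentration without overlap. The gene lies at chr1:29236516-29326813 on the plus strand and codes for a phosphatase of the MAM-domain group, found at cell contacts and known to bind beta-catenin. It is described as a pseudophosphatase, since its catalytic domain differs from those of its relatives. In bulk RNA, fewer cells with a message and less of it per cell cannot be told apart. PTPRU was at 93.4, 103 and 109 CPM in Ctrl. (given here and below in the order of replicates 1 to 3), at 127, 135 and 150 CPM at 10 nM and at 155, 168 and 218 CPM at 20 nM. The lowest 10 nM library lay above the highest Ctrl. library, and the lowest 20 nM library above the highest 10 nM library. Group means were 102 ± 7.81, 137 ± 11.5 and 180 ± 33 CPM (SD, n = 3), which is 1.35 times Ctrl. at 10 nM and 1.77 times at 20 nM.

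The fitted log2 fold changes of PTPRU were 0.38 (SE 0.051) at 10 nM and 0.62 (SE 0.057) at 20 nM against the same Ctrl. libraries. Between 20 nM and 10 nM the fitted difference was 0.24 (SE 0.054), and across the concentrations it was 0.69 (SE 0.057) per 20 nM. They are given with no test, because PTPRU was chosen for this rise. The fit holds a surrogate variable, a term for unexplained variation between libraries, which CPM values do not correct for. The fitted fold at 20 nM was 1.53 where the ratio of mean CPM was 1.77, and with no surrogate variable the log2 fold change was 0.82. Without 20 nM replicate 3, the library with the highest PTPRU level, it was 0.66. The leave-one-out fits at 20 nM ran from 0.56 without Ctrl. replicate 1 to 0.70 without 20 nM replicate 1.

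**Figure D2:**
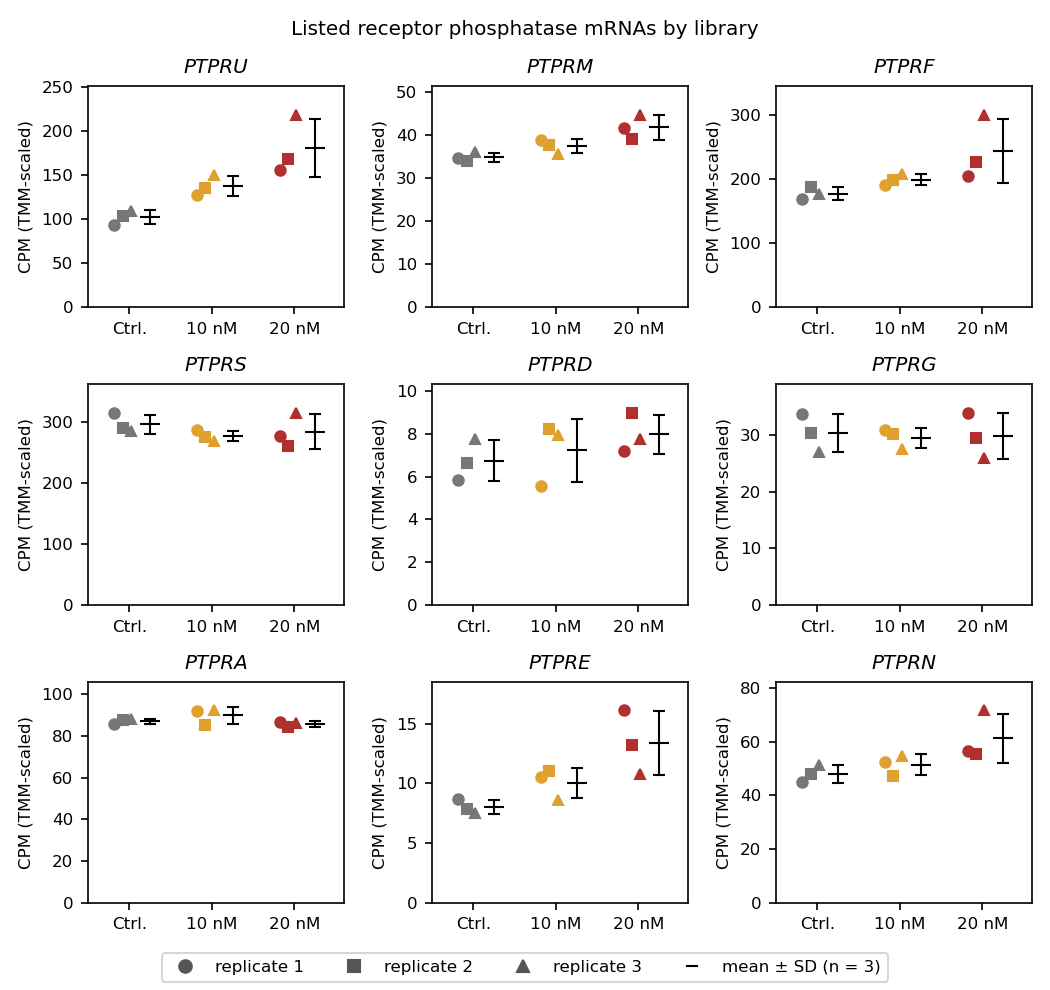
CPM (scaled by TMM) of the 9 listed phosphatase mRNAs in each library, with one panel per gene, circles, squares and triangles for replicates 1, 2 and 3, and the black bar for mean ± SD (n = 3 per group). All y axes start at 0. PTPRU climbed from 93.4 to 109 CPM in Ctrl. to 155 to 218 CPM at 20 nM, whereas PTPRA, PTPRG, PTPRS and PTPRD overlapped between Ctrl. and 20 nM.

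PTPRM is the other measured member of the MAM-domain group and binds itself across cell contacts. It was at 34.7, 33.8 and 35.9 CPM in Ctrl., at 38.8, 37.7 and 35.5 CPM at 10 nM and at 41.6, 38.9 and 44.6 CPM at 20 nM. The 20 nM libraries lay above all others, by little over the highest 10 nM library, and the 10 nM libraries overlapped Ctrl. Its log2 fold change was 0.09 (SE 0.061) at 10 nM and 0.21 (SE 0.068) at 20 nM, neither past the threshold (edgeR quasi-likelihood test, adjusted p = 0.539 and 0.0566). The dose trend of PTPRM, 0.23 (SE 0.062), passed it at an adjusted p of 0.0215 by the same test. That call was lost without Ctrl. replicate 1 at an adjusted p of 0.0636, in a range of 0.0179 to 0.24 over 18 alternatives. At 20 nM PTPRM passed once 20 nM replicate 3 was left out (adjusted p = 0.0389, range 0.0389 to 0.208 over 17 alternatives).

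The leukocyte common antigen-related group, PTPRF, PTPRS and PTPRD, organizes synapses through liprins inside the cell and adhesion partners outside. At 20 nM 1 of the 3 passed the threshold, where 7.8% of all genes were called higher and 6.08% lower, so nothing is read from this count. PTPRF was at 168, 187 and 177 CPM in Ctrl., at 191, 199 and 207 CPM at 10 nM and at 205, 226 and 300 CPM at 20 nM. Both mimic groups lay above Ctrl., and 20 nM replicate 3 stood above the other libraries by a wide margin. PTPRF rose at 20 nM by a log2 fold change of 0.24 (SE 0.049, edgeR quasi-likelihood adjusted p = 0.00592) and in the dose trend by 0.31 (SE 0.047, adjusted p = 0.000557). At 10 nM its value of 0.11 did not pass (adjusted p = 0.264). The ratio of mean CPM at 20 nM was 1.37 where the fitted fold of PTPRF was 1.18, and with no surrogate variable its log2 fold change was 0.46. The call at 20 nM was lost without 20 nM replicate 2 (adjusted p = 0.0527, range 0.000432 to 0.0527 over 17 alternatives), and that of the dose trend held in 9 of 9 leave-one-out fits.

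PTPRS was at 314, 290 and 285 CPM in Ctrl., at 286, 275 and 269 CPM at 10 nM and at 277, 260 and 315 CPM at 20 nM. The 3 groups overlapped, and the highest and the lowest library were both 20 nM libraries. Its log2 fold change of -0.14 at 20 nM did not pass the threshold (edgeR quasi-likelihood test, adjusted p = 0.187), with a 95% interval from -0.28 to 0.0027. PTPRD, the member with the 8-mer shown above, was at 5.83, 6.65 and 7.75 CPM in Ctrl., at 5.55, 8.22 and 7.94 CPM at 10 nM and at 7.2, 8.99 and 7.78 CPM at 20 nM. Its groups overlapped at these low levels, and its value of 0.20 at 20 nM (adjusted p = 0.53, interval -0.20 to 0.60) had a positive sign and no call. A change of PTPRD smaller than this interval was not detectable with this depth and this spread between libraries.

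PTPRE had a fitted change at 20 nM above that of PTPRU and a lower ratio of mean CPM, 1.67 against 1.77. It belongs with PTPRA to the group with short, glycosylated ectodomains, and both can remove the inhibitory phosphate of Src family kinases. PTPRE was at 8.69, 7.84 and 7.52 CPM in Ctrl., at 10.5, 11 and 8.57 CPM at 10 nM and at 16.1, 13.2 and 10.8 CPM at 20 nM. All 20 nM libraries lay above Ctrl., the 10 nM group reached down into Ctrl., and within each group replicate 3 was the lowest, where for PTPRU it was the highest. PTPRE rose at 20 nM by a log2 fold change of 0.92 (SE 0.119, edgeR quasi-likelihood adjusted p = 0.000336), a fold of 1.89, and in the dose trend by 0.85 (SE 0.110, adjusted p = 0.000199), and each of these calls held in 9 of 9 leave-one-out fits. At 10 nM its value of 0.37 did not pass (SE 0.111, adjusted p = 0.155). Between 20 nM and 10 nM PTPRE rose by 0.55 (SE 0.113, adjusted p = 0.0216). This call was lost without 10 nM replicate 1 (adjusted p = 0.0641), 10 nM replicate 3 (0.11) or 20 nM replicate 1 (0.269). It was also lost with no surrogate variable (0.402) and with a replicate block in its place (0.147), in a range of 0.0137 to 0.402 over 17 alternatives.

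PTPRA, at chr20:2873420-3039076 on the plus strand, was the most even of the 9. It was at 85.8, 87.7 and 88.1 CPM in Ctrl., at 92, 85.4 and 92.3 CPM at 10 nM and at 86.8, 84.3 and 86.3 CPM at 20 nM. The groups overlapped, and the log2 fold change at 20 nM was -0.03 with a 95% interval from -0.14 to 0.083 (edgeR quasi-likelihood adjusted p = 0.79). The interval of PTPRE at 20 nM, 0.66 to 1.18, does not meet that of PTPRA.

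PTPRG carries an extracellular domain like carbonic anhydrase, with which it binds contactins. It was at 33.6, 30.3 and 27 CPM in Ctrl., at 30.8, 30.1 and 27.5 CPM at 10 nM and at 33.9, 29.5 and 25.9 CPM at 20 nM. In every group replicate 1 was the highest and replicate 3 the lowest, and the groups overlapped. Its value of 0.11 at 20 nM did not pass the threshold (edgeR quasi-likelihood adjusted p = 0.454, interval -0.08 to 0.298).

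PTPRN sits in the membrane of dense-core secretory vesicles and has lost phosphatase activity. It was at 44.8, 47.8 and 51.3 CPM in Ctrl., at 52.4, 47.1 and 54.8 CPM at 10 nM and at 56.5, 55.5 and 71.6 CPM at 20 nM. The 20 nM libraries lay above all others, led by replicate 3, and the 10 nM libraries overlapped Ctrl. PTPRN rose in the dose trend by a log2 fold change of 0.25 (SE 0.063, edgeR quasi-likelihood adjusted p = 0.0156), while its 0.20 at 20 nM did not pass (adjusted p = 0.0828). The trend call was lost without Ctrl. replicate 1 (adjusted p = 0.0815), without 20 nM replicate 2 (0.0531) and with no surrogate variable (0.0513), in a range of 0.00574 to 0.315 over 18 alternatives. With no surrogate variable the value of PTPRN at 20 nM was 0.35, and it passed without 20 nM replicate 3 (adjusted p = 0.0255, range 0.0182 to 0.243 over 17 alternatives).

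**Figure D3:**
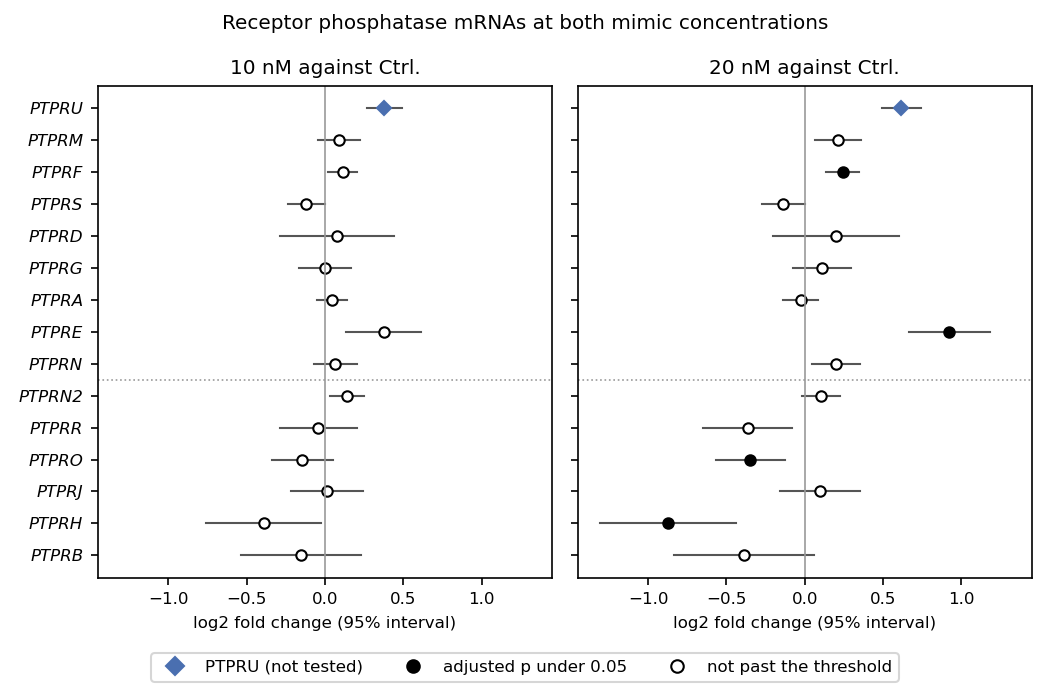
Log2 fold change against Ctrl. at 10 nM (left) and 20 nM (right) for 15 receptor-type phosphatase mRNAs, with 95% intervals from the edgeR fit over 9 libraries and the 9 listed genes above the dotted line. Filled circles passed an adjusted p of 0.05, open circles did not, and the blue diamond is PTPRU, which was not tested. No circle is filled at 10 nM, and at 20 nM PTPRE and PTPRF lie to the right of 0 and PTPRO and PTPRH to the left.

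Counted together without PTPRU, 0 of the 8 other genes passed at 10 nM by the edgeR quasi-likelihood test, where 0.649% of all genes did. DESeq2 also called 0, but gave no adjusted p at 10 nM for PTPRD and PTPRE. In the edgeR fit PTPRE and PTPRF were the 2 of 8 with an unadjusted p under 0.05 at 10 nM, against 13.9% of all genes. At 20 nM 2 of 8 were higher (PTPRE, PTPRF) and 0 lower, against 7.8% and 6.08% of all genes, and DESeq2 called 2. Between 20 nM and 10 nM PTPRE alone was called, higher, where 1.91% of genes were higher and 0.883% lower. In the dose trend 4 of 8 were higher (PTPRE, PTPRF, PTPRM, PTPRN) and 0 lower, against 9.92% and 7.64% of all genes. With the mimic coded as present or absent in place of the concentration, 0 of the 8 were called. The members were listed with results of these libraries known, so nothing is read from these counts.

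The median log2 fold change of the 8 was 0.071 at 10 nM, 0.20 at 20 nM and 0.22 in the dose trend, and over all genes it was within 0.01 of 0 in each. In CPM, PTPRE, PTPRF, PTPRM and PTPRN of the 8 had all 20 nM libraries above all Ctrl. libraries, as did 15.2% of all genes. PTPRU is left out of this comparison, since it was chosen for its rise. Of the same 8, 0 had all 20 nM libraries below all Ctrl. libraries, where 13.7% of all genes did.

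Of the receptor-type phosphatases outside the list, 4 of 6 had a negative value in the dose trend. Of 10 such genes 6 were measured, with a median log2 fold change of -0.35 in the dose trend, and 3 of them fell (PTPRH, PTPRO, PTPRR) while 0 rose, against 7.64% lower and 9.92% higher over all genes. With the replicate block PTPRN2 was called higher and PTPRH was not called. PTPRH, PTPRO, PTPRJ and PTPRB share an ectodomain of fibronectin type repeats and a single catalytic domain. PTPRO, best known from the filtration cells of the kidney and also present in neurons, was at 32.4, 33.2 and 37.6 CPM in Ctrl., at 28.4, 29.7 and 36.1 CPM at 10 nM and at 28, 27.3 and 27.2 CPM at 20 nM. Its 20 nM libraries lay close together and below all others. PTPRO fell by 0.35 on the log2 scale at 20 nM (edgeR quasi-likelihood adjusted p = 0.0384) and by 0.34 in the dose trend (adjusted p = 0.0182), calls that held in 5 and in 7 of 9 leave-one-out fits. Both were lost with no surrogate variable (adjusted p = 0.0746 and 0.0529). The call at 20 nM was also lost with 2 surrogate variables (0.067), and that of the trend with the mimic coded as present or absent (0.227). PTPRO holds the 7-mer GTGAGAA shown above, as does PTPRN2, whose dose trend was 0.18 with no call. PTPRH and PTPRR, also called lower in the trend, hold no match.

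PTPRH was at 4.28, 6.05 and 6.18 CPM in Ctrl., at 3.64, 4.95 and 4.97 CPM at 10 nM and at 2.68, 3.83 and 5.88 CPM at 20 nM. The groups overlapped, since replicate 1 was lowest in each and 20 nM replicate 3 was near Ctrl., but each mimic library lay below the Ctrl. library of its number. Its fitted change of -0.87 at 20 nM (SE 0.2, edgeR quasi-likelihood adjusted p = 0.0121) was lost with no surrogate variable (-0.41, adjusted p = 0.365), with the replicate block (-0.44, 0.106) and without 20 nM replicate 1 (-0.56, 0.166), in a range of 0.00668 to 0.365 over 17 alternatives. PTPRR, which binds MAP kinases, was at 13.5, 14.8 and 14.5 CPM in Ctrl., at 13.9, 15.7 and 11 CPM at 10 nM and at 10.7, 11.1 and 8.71 CPM at 20 nM. Its 20 nM group lay below Ctrl., and the dose trend of -0.39 passed (adjusted p = 0.039), a call that held in 5 of 9 leave-one-out fits. The trend call of PTPRR was also lost with no surrogate variable (adjusted p = 0.0553) and with the mimic coded as present or absent (0.489).

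PTPRN2, the close relative of PTPRN in secretory vesicles, was at 95.1 ± 5.3 CPM in Ctrl., 109 ± 9.61 at 10 nM and 117 ± 20.4 at 20 nM (SD, n = 3). All 6 mimic libraries lay above the Ctrl. library of their number, and both mimic groups above Ctrl. Its dose trend of 0.18 did not pass (edgeR quasi-likelihood adjusted p = 0.0559), but PTPRN2 was called higher in the trend with the replicate block (0.29, adjusted p = 0.0173), without 20 nM replicate 1 (0.31, 0.00615) and without 10 nM replicate 3 (0.0208), in a range of 0.00615 to 0.286 over 18 alternatives. With the block it also passed at 20 nM (adjusted p = 0.0272, range 0.0272 to 0.669 over 17 alternatives). PTPRJ, a phosphatase of growth factor receptors, holds an 8-mer as PTPRD does, and its dose trend was 0.11 (adjusted p = 0.534). PTPRB, known from the vessel wall, was at 3.62 ± 0.552 CPM in Ctrl. and 2.89 ± 0.233 at 20 nM, with a trend of -0.36 (adjusted p = 0.199). Of the 15 receptor phosphatases measured, the pair with an 8-mer, PTPRD and PTPRJ, thus had positive values in the dose trend and no call. The sign of PTPRJ was not firm, since without 20 nM replicate 2 its value was -0.019, while that of PTPRD was small but still positive at 0.0544.

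Beyond the receptor type, 14 of 17 classical non-receptor phosphatases were measured, with 0 higher, 1 lower and a median of -0.11 in the dose trend, a count near the 7.64% of all genes that were lower. The gene that fell was PTPN1, the phosphatase of the endoplasmic reticulum membrane that acts on the insulin receptor. PTPN1 was at 75.4, 73.4 and 78.7 CPM in Ctrl., at 59.6, 62.2 and 61.9 CPM at 10 nM and at 51.7, 54.3 and 59.9 CPM at 20 nM. All mimic libraries lay below all Ctrl. libraries, and 20 nM replicate 3 touched the range at 10 nM. PTPN1 fell by 0.33 on the log2 scale at 10 nM (edgeR quasi-likelihood adjusted p = 0.00412) and by 0.54 at 20 nM (adjusted p = 3.71e-05). The call at 10 nM was lost in 2 of 17 alternatives. Of the 14, 6 held a 7-mer in the 3′ UTR (PTPN1, PTPN4, PTPN9, PTPN11, PTPN14, PTPN21), and 5 of these 6 had no call in the dose trend, with positive values for PTPN11 (0.071) and PTPN14 (0.23).

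Of 30 listed extracellular partners of these receptors, 23 were measured, and in the dose trend 6 rose (CNTN1, COL18A1, LAMC1, LRRC4B, NRCAM, SDC2) and 2 fell (MDK, SDC4), against 9.92% and 7.64% of all genes, with a median of 0.14. The count that fell is near that of all genes. CNTN1, the axonal adhesion molecule contactin, was at 54.4, 54.3 and 56.8 CPM in Ctrl., at 65.5, 68.8 and 70 CPM at 10 nM and at 85.8, 81.5 and 83.7 CPM at 20 nM. Like PTPRU, its 3 groups followed the concentration without overlap, with a narrow spread in each. CNTN1 rose by 0.30 at 10 nM (edgeR quasi-likelihood adjusted p = 0.0117), a call lost in 5 of 17 alternatives (adjusted p up to 0.255), and by 0.60 at 20 nM (adjusted p = 2.41e-05), a call kept in all 17. Of the syndecans, which carry heparan sulfate, SDC2 rose by 0.43 in the dose trend (adjusted p = 0.00148) and SDC4 fell by 0.80 (adjusted p = 0.000258). SDC4 went from 19.6 ± 0.806 CPM in Ctrl. to 11.1 ± 1.31 CPM at 20 nM. The growth factor midkine, MDK, fell by 0.17 (adjusted p = 0.035), which was lost in 6 of 18 other settings.

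Among 9 of 10 adherens junction partners measured, 3 rose (CDH2, CDH4, CTNNB1) and 3 fell (ARVCF, CTNNA1, JUP) in the dose trend, against 9.92% and 7.64% of all genes, with a median of -0.045. CTNNB1, which codes for beta-catenin, was at 205, 228 and 201 CPM in Ctrl., at 227, 238 and 230 CPM at 10 nM and at 323, 330 and 305 CPM at 20 nM. Its 20 nM libraries stood well above all others, and the 10 nM group reached into Ctrl. CTNNB1 rose by 0.63 at 20 nM (edgeR quasi-likelihood adjusted p = 2.91e-05), and the cadherin CDH4 rose by 0.84 in the dose trend (adjusted p = 0.000354). JUP, or plakoglobin, fell by 0.39 (adjusted p = 0.000193) and CTNNA1, or alpha-catenin, by 0.28 (adjusted p = 0.0199) in the dose trend. The call of CTNNA1 was lost in 4 of 18 alternatives (adjusted p up to 0.0621).

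Of 12 of 13 liprins and other intracellular partners measured, 0 rose and 3 fell (ABL1, ENAH, PPFIBP1), against 9.92% and 7.64% of all genes, with a median of -0.064. The tyrosine kinase ABL1 fell by 0.24 (edgeR quasi-likelihood adjusted p = 0.00695) and the liprin PPFIBP1 by 0.23 (adjusted p = 0.0105), calls lost in 3 and in 2 of 18 alternatives. Of 7 of 8 Src family kinases and regulators measured, the kinase LYN rose by 0.16 (adjusted p = 0.0212), a call lost in 6 of 18 alternatives (adjusted p up to 0.301), and the ubiquitin ligase CBL fell by 0.40 (adjusted p = 0.000462), and the median was 2e-04. The 20 nM libraries of LYN overlapped Ctrl. All 12 proteases that cut receptor phosphatases were measured, with a median of -0.021. ADAM17, which sheds ectodomains, rose by 0.53 (adjusted p = 0.00081) and FURIN, which cleaves precursors in the secretory pathway, rose by 0.48 (adjusted p = 0.000502), while 0 fell, and each call was lost with the mimic coded as present or absent. These 2 of 12 compare with 9.92% higher over all genes, and the 0 with 7.64% lower. All these are dose trend values per 20 nM.

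**Figure D4:**
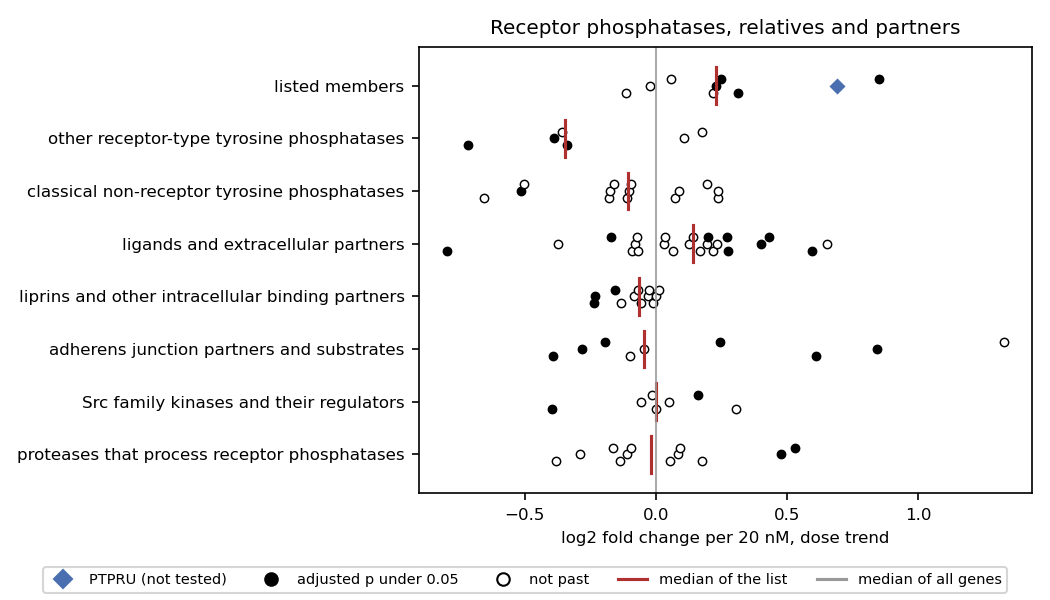
Log2 fold change per 20 nM in the dose trend for every measured gene of 8 lists, one row per list, with filled circles for an adjusted p under 0.05, open circles for the others, a blue diamond for PTPRU (not tested), a red bar for the median of the list and a grey line for that of all genes. The medians run from -0.35 in the other receptor-type phosphatases to 0.14 in the ligands and higher in the listed genes, whose row includes PTPRU.

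The genes whose course over the 9 libraries came closest to that of PTPRU were taken from 10508 genes with a mean of at least 10 CPM, by the root mean square difference of log2 CPM after each gene's mean was subtracted. CHPF, which polymerizes chondroitin, was nearest at 0.0371, then VSTM2L at 0.0627, the mechanically gated channel PIEZO1 at 0.0654 and the synaptic adhesion protein LRFN2 at 0.0679. PLCH2, a phospholipase C, lay at 0.0785, SIL1, an exchange factor of the chaperone BiP, at 0.0885, the semaphorin SEMA4F at 0.0889 and the vesicle protein SYNGR2 at 0.0917. CHPF was at 90.3, 96.6 and 97.3 CPM in Ctrl., at 116, 123 and 135 CPM at 10 nM and at 147, 160 and 200 CPM at 20 nM. As in PTPRU, replicate 3 was the highest library of CHPF in each group. The 8 genes were chosen for this likeness, so no test is given. Without 20 nM replicate 3, 6 of the 8 were still among the 8 nearest, and ZNF469 and DDC took the places of SEMA4F and SYNGR2.

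**Figure D5:**
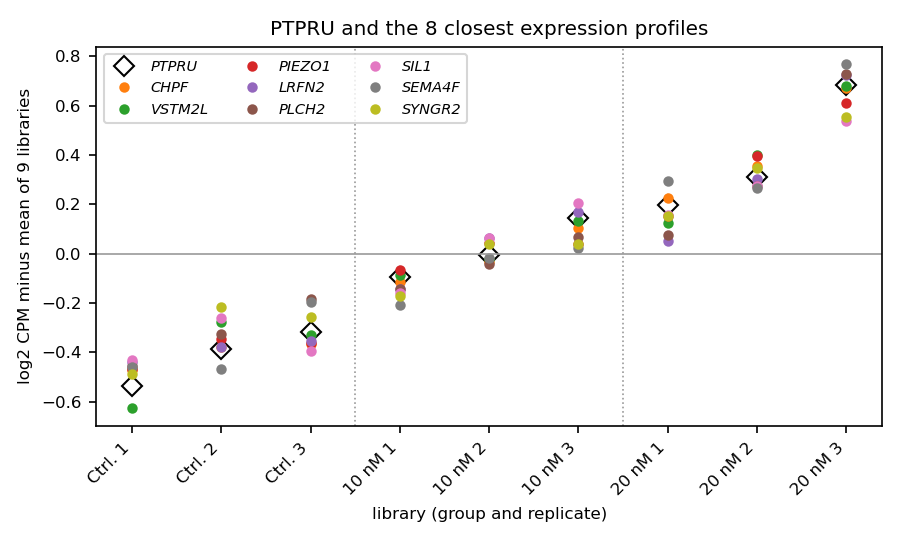
Log2 CPM minus the mean of the 9 libraries for PTPRU (open diamonds) and its 8 nearest genes (coloured circles), by library. Every point of the 3 Ctrl. libraries lies below 0 and every point of the 3 libraries at 20 nM above 0, and 20 nM replicate 3 is the highest library for all 9 genes.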

How the data were processed

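Per the labels and the study's methods, RNA from SH-Sy5y cells was sequenced as polyadenylated libraries, where possible from pooled wells. The authors mapped reads with salmon to GRCh38.p13, added them up per gene symbol and applied filterByExpr against low expression. What they deposited are estimated counts, of which 88.8% are not whole, for 14943 genes. Whether strand was used is not given in the sources used here, so overlapping and antisense genes can share reads. The authors' deposited tables of log2 fold changes and p-values, and a table of corrected log2 values, were not used.

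Counts were rounded and fitted with edgeR 4.0.16 in R 4.3.3 (TMM, glmQLFit, glmQLFTest) over all 9 libraries, with surrogate variables from sva 3.50.0. The number from num.sv (method be, seed 1), held between 1 and 3, was 1 in the fit by group and 1 in that by concentration. P-values were adjusted by Benjamini-Hochberg over 14943 genes, with a threshold of 0.05. Comparisons were 10 nM and 20 nM against the same Ctrl. libraries, 20 nM against 10 nM, and concentration (0, 10, 20 nM) as a number, the dose trend, per 20 nM. An SE is the log2 fold change over the square root of F, and 95% intervals use the t distribution of the fit. CPM are not corrected for surrogate variables. The scripts were tested on simulated counts. Groups and replicate numbers came from sample titles. The result of 1 marker gene is not reported here. Library pairs within a group differed beyond sampling noise and counted as separate.

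The members, lists and tests were chosen with earlier results of these data known. Named genes were all receptor-type phosphatases in the table, from each other list the 2 largest rises and 2 largest falls past the threshold in the dose trend, and the 8 genes nearest PTPRU in profile. Others are listed only to complete a count. The log2 CPM of the profiles used a prior count of 2. PTPRD and PTPRN2 carry identifiers of alternate contigs and were matched to the annotation by symbol. Alternatives were RLE scaling, library totals, a filter at 1 CPM, other numbers of surrogate variables, DESeq2 1.42.0, a replicate block, the mimic as present or absent, and leaving out each library. Figures used matplotlib 3.10.9 in Python 3.11.15.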

Additional observations from a re-analysis of the deposited data

How the results depend on the processing

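The rise of PTPRU kept its sign in every alternative run. Since PTPRU was chosen for this rise in the same libraries, that is a description and lends the rise no support. At 20 nM its log2 fold change was 0.82 with no surrogate variable and 0.81 with a replicate block in place of it, and in the dose trend 0.48 with the mimic coded as present or absent. Leaving out 1 library gave 0.34 to 0.42 at 10 nM, 0.56 to 0.70 at 20 nM, 0.22 to 0.30 between the concentrations and 0.61 to 0.81 in the dose trend. Of the 8 other listed genes, the number called ranged over these fits from 1 (without 20 nM replicate 2) to 4 (without 20 nM replicate 3) at 20 nM, from 0 (without 10 nM replicate 1 or 3 or 20 nM replicate 1) to 1 between the concentrations and from 2 (without Ctrl. replicate 1) to 4 in the dose trend. It was 0 between the concentrations with no surrogate variable and 0 in the trend with the mimic coded as present or absent. For the trend, num.sv gave more than 1 in 7 of 20 seeds, and with 2 surrogate variables the trend still called 4 members.

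Replicate numbers were not fitted as pairs in the main model, because what they share was not stated. Same-numbered libraries of different groups correlated at 0.0288 to 0.185 in their deviations, 8 of 9 pairs over 0.1. In both other groups 8 of 9 libraries matched best with their own number, a hint of pairing from the data. The labels tie the same libraries, by a number in the titles and a letter in the library names, without stating what it stands for. With the replicate block, 4 members were called at 20 nM and 0 between the concentrations. PTPRM (edgeR quasi-likelihood adjusted p = 0.0403) and PTPRN (0.0182) were called at 20 nM with the block and not in the main fit. Over all genes the block called 3 at 10 nM against 97, 2039 at 20 nM against 2074, 124 between the concentrations against 417 and 2444 in the trend against 2624. With no surrogate variable these counts were 5, 954, 67 and 1236. DESeq2 called 204 genes at 10 nM, and the presence or absence fit 164 in place of the trend. Depth was least for PTPRB, PTPRH and PTPRD, which had the fewest counts of the receptor phosphatases and the widest intervals at 20 nM.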
